A study of Saccharomyces cerevisiae with 16 samples.

Results

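The genes described are 9 of the 6174 features of a yeast array that make, take up or use glycerol, and they were chosen by systematic name. Glycerol synthesis is represented by GPD1 (YDL022W), GPD2 (YOL059W), GPP1 (YIL053W) and GPP2 (YER062C, also HOR2). Glycerol use is represented by GUT1 (YHL032C) and GUT2 (YIL155C), uptake by STL1 (YDR536W), and the dihydroxyacetone branch by GCY1 (YOR120W) and DAK1 (YML070W). All 9 names matched the reference gene table.

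The arrays compared Saccharomyces cerevisiae cells given 20 mM KOH, which brings the medium to pH 8, with cells of that strain treated equally long with 20 mM KCl. The strains were the wild type W303-1A and MCY5278, a W303-1A derivative with genotype msn2::kanMX4 msn4::hphMX4, which lacks the stress transcription factors Msn2 and Msn4. Cultures in rich YPD medium at 28 °C were sampled 10 or 30 min after the addition, giving 4 groups of 4 two-colour arrays. The dyes were swapped, so that each group has 2 arrays with KOH in Cy3 and 2 with KOH in Cy5. Behind the 4 arrays are 2 biological replicates, with no label saying which arrays share an extract. Apart from those of paired arrays, p-values below take arrays as units and are therefore too small where arrays share an extract. Those of paired arrays may be too small as well, since which pairing matches the extracts is not known.

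Glycerol is the main osmolyte of budding yeast. Gpd1 and Gpd2 reduce dihydroxyacetone phosphate, a glycolytic intermediate, to glycerol 3-phosphate, and Gpp1 and Gpp2 remove the phosphate. On the way back, Gut1 phosphorylates glycerol and the mitochondrial enzyme Gut2 oxidises glycerol 3-phosphate to dihydroxyacetone phosphate. Gcy1 and Dak1 form another route, through dihydroxyacetone, and Stl1 imports glycerol together with protons. Of the synthesis genes, GPD1 and GPP2 are best known as targets of the Hog1 kinase under osmotic stress. GUT1, GUT2 and STL1 are repressed by glucose.

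Each value is the log2 of KOH over KCl, less the median of its array, so 1 unit is a 2-fold change. The base and the direction of the deposited ratios are likely rather than stated. Arrays are numbered 1 to 4 within a group as names only. An array held values for 2073 to 5443 features. GPD1, GPD2, GPP1, GPP2 and GUT2 had a value on all 16 arrays, while GUT1 had 12, GCY1 13, DAK1 15 and STL1 7. A gene was tested, with a linear model in limma over all 16 arrays, where each group compared had at least 3 values and both dyes. It passed at a Benjamini-Hochberg adjusted p below 0.05 over all features tested. Errors after ± are standard errors of that model, for 4 arrays a group where no n is given. The ratios are averages over a culture and are relative to the array, so a change in some cells, or in total RNA per cell, cannot be told apart from a change in every cell. MSN2, deleted in the mutant, still gave ratios on every one of the 8 mutant arrays, and MSN4 did so on 5. What those probes measured is not known, so the arrays do not check the genotype.

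In wild type at 10 min the glycerol genes split into rises and 1 fall. GPD1, GUT2, GCY1 and DAK1 rose, GPP1 fell, and GPD2 and GPP2 did not pass. These 5 of 7 tested genes compare with 42.7% of the 2670 features tested (21.8% higher and 20.9% lower), a background so high that little can be read from the count. The median of the 7 was 0.53, against -0.04 over all features tested. GUT1 and STL1 had too few values to be tested.

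GPD1, the dehydrogenase induced by osmotic stress, read 1.37, 1.19, 2.05 and 0.88 on arrays 1 to 4 of wild type at 10 min. The rise was 1.37 ± 0.15, or 2.59-fold (adjusted p = 1.63e-06), and lay above 94.8% of the features tested. All 4 arrays were clearly positive, with array 3 the highest. In the mutant the arrays read 0.87, 1.11, 1.47 and 0.77, a rise of 1.05 ± 0.15 or 2.07-fold (adjusted p = 4.32e-05). The strains overlapped, and their difference, mutant minus wild type, was -0.32 ± 0.21 (adjusted p = 0.646). By 30 min the rise was no longer seen. Wild type read 0.11, 0.28, 0.74 and -0.05, with an estimate of 0.27 ± 0.15 (adjusted p = 0.183). The mutant read -0.29, -0.07, 0.58 and 0.18, with an estimate of 0.10 ± 0.15 (adjusted p = 0.616). No array at 30 min reached the lowest one at 10 min in the same strain. The change from 10 to 30 min was -1.10 ± 0.21 in wild type (adjusted p = 0.00157) and -0.95 ± 0.22 in the mutant (adjusted p = 0.00447). Arrays with KOH in Cy5 read higher for GPD1 than those with KOH in Cy3, by 0.44 ± 0.16, a dye difference that the model carries as a term and that did not pass over all features (adjusted p = 0.21).

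Since 2 arrays may share an extract, a second analysis took the mean of a Cy3 and a Cy5 array as 1 value, and was repeated for all 16 possible pairings. Each group allows 2 pairings, and the 16 are their combinations over the 4 groups. For the response of 1 group they hold only 2 versions of its values, so they are not 16 separate checks. Calls over all features also varied, in the mutant at 30 min from 694 of 4461 to 2002 of 4669. GPD1 at 10 min passed under all 16 in both strains, with adjusted p up to 0.00207 in wild type and 0.00887 in the mutant. Its change with time passed under 12 of 16 in wild type and 8 of 16 in the mutant, with adjusted p up to 0.0736 and 0.125.

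GPD2, the isoenzyme linked to redox balance when oxygen is short, gave smaller ratios than GPD1 at 10 min. At 10 min wild type read 0.30, 0.03, 0.77 and 0.18 (0.32 ± 0.13, adjusted p = 0.0578) and the mutant -0.06, 0.29, 0.31 and 0.23 (0.19 ± 0.13, adjusted p = 0.262). The wild-type value passed without array 2, at 0.46 (adjusted p = 0.0126), and when arrays were centred on the features measured on all 16, at 0.42 (adjusted p = 0.0106). At 30 min it passed narrowly in both strains. Wild type read 0.07, 0.43, 0.77 and 0.38, a rise of 0.41 ± 0.13 or 1.33-fold (adjusted p = 0.0212). The mutant read 0.30, 0.18, 0.71 and 0.24, a rise of 0.36 ± 0.13 or 1.28-fold (adjusted p = 0.0391). Array 3 was the highest in all 4 groups. The wild-type call was lost without array 3, at 0.33 (adjusted p = 0.117), and without array 4, at 0.38 (adjusted p = 0.0837). The mutant call was lost without array 1, at 0.34 (adjusted p = 0.108), without array 3, at 0.27 (adjusted p = 0.184), and without array 4, at 0.36 (adjusted p = 0.0856). It passed under 3 of 16 pairings in wild type and 0 of 16 in the mutant, where adjusted p ran from 0.0582 to 0.257. Fitted on its own group alone or on the larger slide series, described with GPP1, it passed in neither strain, and without the dye term the mutant missed (adjusted p = 0.056). The differences between strains were -0.13 ± 0.18 at 10 min (adjusted p = 0.876) and -0.05 ± 0.19 at 30 min (adjusted p = 0.905).

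The isoenzymes responded unequally at 10 min. On each array the log2 ratio of GPD1 minus that of GPD2 was positive on 4 of 4 wild-type arrays, from 0.71 to 1.28, with a mean of 1.06 ± 0.25 (SD, n = 4). It was positive on 4 of 4 mutant arrays, from 0.54 to 1.17, with a mean of 0.86 ± 0.26 (SD, n = 4). At 30 min it lay between -0.43 and 0.05 in wild type and between -0.59 and -0.06 in the mutant. These are differences of responses, not of expression levels, and no test was made on them.

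**Figure D1:**
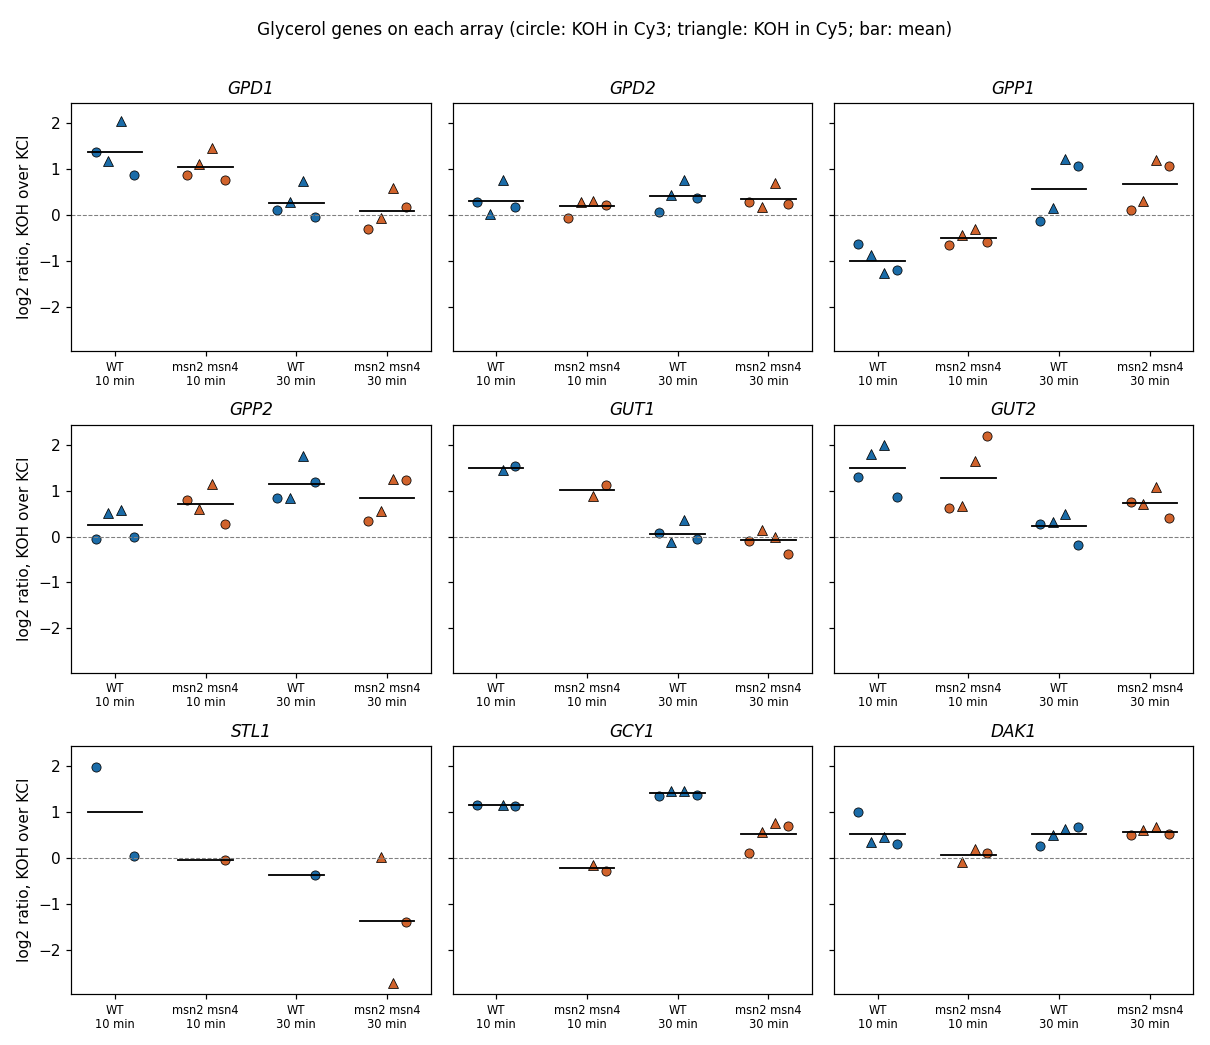
Each panel plots 1 gene, with the log2 ratio of KOH over KCl on the y axis and the 4 groups on the x axis, WT in blue and the msn2 msn4 mutant in orange. Points are arrays 1 to 4 from left to right, circles with KOH in Cy3 and triangles with KOH in Cy5, and bars are means. GPD1, GUT1 and GUT2 stand highest at 10 min, GPP1 moves from below 0 at 10 min to a mean above 0 at 30 min, and GCY1 is higher in WT than in the mutant at both times.

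The phosphatase gene GPP1 moved the other way from GPD1, with lower ratios at 10 min than at 30 min in both strains. GPP1, the more abundant phosphatase under normal growth, read -0.63, -0.87, -1.25 and -1.20 in wild type at 10 min. That is a fall to 0.503-fold (-0.99 ± 0.21, adjusted p = 0.00105), below all but 4.31% of the features tested. All 4 arrays were negative, and it passed under all 16 pairings, with adjusted p up to 0.0368. The mutant read -0.65, -0.42, -0.30 and -0.59, also all negative. Its estimate of -0.49 ± 0.21 did not pass (adjusted p = 0.0795), though it did with values as deposited, at -0.57 (adjusted p = 0.0468), with quantile normalization, at -0.58 (adjusted p = 0.0328), and with a fit on that group alone (adjusted p = 0.0146). The strains differed by 0.50 ± 0.29 (adjusted p = 0.587), with overlapping arrays.

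At 30 min GPP1 was raised in both strains, and its arrays fell apart into a low and a high pair. Wild type read -0.12, 0.15, 1.22 and 1.07, an estimate of 0.58 ± 0.21 (adjusted p = 0.0403). The mutant read 0.12, 0.31, 1.21 and 1.07, an estimate of 0.68 ± 0.22 or 1.60-fold (adjusted p = 0.0197). In both strains arrays 3 and 4 stood near 1 and arrays 1 and 2 near 0, and each pair holds both dyes. Without array 3 wild type stood at 0.37 (adjusted p = 0.251) and without array 4 at 0.38 (adjusted p = 0.251). The mutant stood at 0.51 (adjusted p = 0.12) without array 3 and at 0.52 (adjusted p = 0.106) without array 4. The calls held under 4 of 16 pairings in wild type and 5 of 16 in the mutant. Fitted on its own group alone, neither passed (adjusted p = 0.101 and 0.0975), and the wild-type value as deposited, at 0.56, also missed (adjusted p = 0.0539). Array 4 of each group has a title number from another range than the rest, read here as another slide series. On the larger series alone the estimates were 0.36 (adjusted p = 0.312) and 0.50 (adjusted p = 0.16). The number that titles each array is the only basis of this split, and its part in the result was not tested further.

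The change of GPP1 from 10 to 30 min was less dependent on single arrays. It was 1.57 ± 0.30 in wild type, 2.97-fold (adjusted p = 0.0012), and ranked 8 from the top among 2607 features tested for this change. In the mutant it was 1.17 ± 0.30, 2.25-fold (adjusted p = 0.00983). Groups did not overlap in either strain. It passed with each array left out in turn, while it passed under 15 of 16 pairings in wild type and 7 of 16 in the mutant, where adjusted p reached 0.16. On the larger slide series alone the mutant stood at 1.01 (adjusted p = 0.0791).

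GPP2, the phosphatase gene known to respond to osmotic stress, rose most in wild type at 30 min. The arrays read 0.84, 0.85, 1.75 and 1.18, a rise of 1.15 ± 0.18 or 2.23-fold (adjusted p = 6.29e-05). All 4 were clearly positive, with array 3 the highest, and all 16 pairings passed. The mutant at 30 min read 0.35, 0.55, 1.25 and 1.23, a rise of 0.84 ± 0.18 or 1.80-fold (adjusted p = 0.00141), with arrays 3 and 4 again above arrays 1 and 2. At 10 min the mutant read 0.79, 0.60, 1.14 and 0.27, a rise of 0.70 ± 0.17 or 1.62-fold (adjusted p = 0.00453), which held under 12 of 16 pairings (adjusted p up to 0.0782). Wild type at 10 min read -0.05, 0.51, 0.58 and -0.02, an estimate of 0.26 ± 0.17 that did not pass (adjusted p = 0.255). There the Cy5 arrays lay above the Cy3 arrays. The strains were not shown to differ, at 0.44 ± 0.24 at 10 min (adjusted p = 0.551) and -0.31 ± 0.25 at 30 min (adjusted p = 0.519). From 10 to 30 min GPP2 changed by 0.90 ± 0.24 in wild type (adjusted p = 0.0143, 6 of 16 pairings) and by 0.14 ± 0.24 in the mutant (adjusted p = 0.774). Whether the change with time differs between strains was not tested. On the larger slide series alone the wild-type change was 0.80 (adjusted p = 0.0675).

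GPP2 exceeded GPP1 on every array of the series. The difference of their log2 ratios was 1.25 ± 0.52 (SD, n = 4) in wild type and 1.19 ± 0.29 (SD, n = 4) in the mutant at 10 min. At 30 min it was 0.57 ± 0.36 (SD, n = 4) in wild type and 0.16 ± 0.09 (SD, n = 4) in the mutant. Across the 16 arrays their ratios ran in parallel, with a correlation of 0.77 that shares arrays and groups and is given as a description. The isoenzyme pairs are similar in sequence, and probes may not separate them fully.

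**Figure D2:**
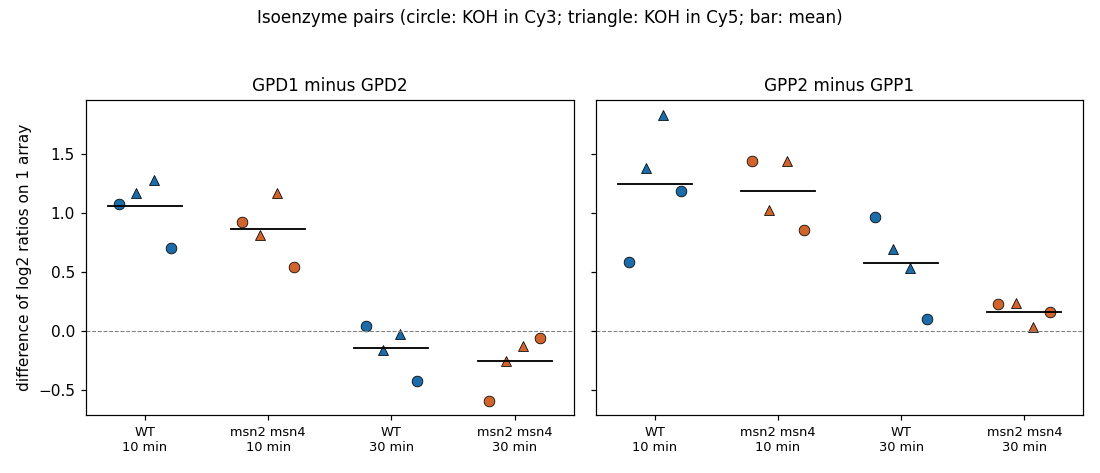
The y axis is the difference of 2 log2 ratios on the same array, GPD1 minus GPD2 on the left and GPP2 minus GPP1 on the right, for the 4 groups on the x axis. Points are arrays (circle: KOH in Cy3, triangle: KOH in Cy5) and bars are means. GPD1 exceeds GPD2 on all 10 min arrays and lies near or below it at 30 min, and GPP2 exceeds GPP1 on all 16 arrays.

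Of the genes of glycerol use, GUT2 rose at 10 min in both strains, while GUT1 had too few values for the test. GUT2, the mitochondrial glycerol 3-phosphate dehydrogenase, read 1.30, 1.80, 1.99 and 0.87 in wild type, a rise of 1.49 ± 0.22 or 2.81-fold (adjusted p = 2.81e-05). In the mutant it read 0.62, 0.68, 1.66 and 2.19, a rise of 1.29 ± 0.22 or 2.44-fold (adjusted p = 0.000183). All 8 arrays were positive, and in the mutant arrays 3 and 4 stood well above arrays 1 and 2. Both rises passed under all 16 pairings. The strains differed by -0.20 ± 0.30 (adjusted p = 0.876), and they overlapped.

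At 30 min GUT2 read 0.28, 0.31, 0.50 and -0.17 in wild type (0.23 ± 0.22, adjusted p = 0.432). The mutant read 0.76, 0.70, 1.08 and 0.40, a rise of 0.73 ± 0.22 or 1.66-fold (adjusted p = 0.0152). That call was lost without array 1, at 0.67 (adjusted p = 0.0616), and without array 3, at 0.66 (adjusted p = 0.0633), and it held under 8 of 16 pairings. The strains were not shown to differ, at 0.50 ± 0.31 (adjusted p = 0.374). From 10 to 30 min GUT2 changed by -1.26 ± 0.30 in wild type (adjusted p = 0.0072, groups apart, 9 of 16 pairings). In the mutant the change was -0.55 ± 0.30 (adjusted p = 0.257), with overlap.

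GUT1, the glycerol kinase, had values at 10 min on arrays 3 and 4 only. They read 1.46 and 1.54 in wild type and 0.89 and 1.13 in the mutant. All 8 arrays at 30 min gave a value, from -0.12 to 0.35 in wild type and from -0.37 to 0.15 in the mutant, below every 10 min value. The estimates at 30 min were 0.06 ± 0.13 (adjusted p = 0.721) and -0.08 ± 0.13 (adjusted p = 0.643). With 2 arrays per group allowed, GUT1 passed at 10 min, at 2.83-fold in wild type (adjusted p = 3.59e-05, n = 2) and 2.02-fold in the mutant (adjusted p = 0.00105, n = 2). Under that setting it also changed with time, by -1.44 ± 0.22 in wild type (adjusted p = 0.000889) and -1.09 ± 0.22 in the mutant (adjusted p = 0.006). The labels do not say whether the arrays compared there share an extract.

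STL1, the glycerol/proton symporter, was mostly unmeasured. Wild type at 10 min read 1.97 on array 1 and 0.04 on array 4. The mutant at 10 min had 1 value, -0.04, and wild type at 30 min had 1 value, -0.36. The mutant at 30 min read 0.03, -2.72 and -1.40 on arrays 2, 3 and 4, an estimate of -1.37 ± 0.57 that did not pass (adjusted p = 0.093, n = 3). Without array 2 it stood at -2.06 (adjusted p = 0.00987, 2 arrays). No direction is given for STL1, because its few values disagree.

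The dihydroxyacetone branch held the 1 member with a difference between strains that passed. GCY1, a reductase of the aldo-keto family that acts as a glycerol dehydrogenase, rose in wild type at both times, while in the mutant it rose at 30 min and stood below 0 on the few arrays that measured it at 10 min. Wild type at 10 min read 1.14, 1.15 and 1.14 on arrays 1, 3 and 4, a rise of 1.17 ± 0.14 or 2.24-fold (adjusted p = 9.04e-06, n = 3). At 30 min it read 1.35, 1.47, 1.45 and 1.37, a rise of 1.41 ± 0.12 or 2.66-fold (adjusted p = 6e-07), above 98.0% of the 4288 features tested. The 7 wild-type values thus ran from 1.14 to 1.47 over both times and both dyes. The mutant at 10 min read -0.15 and -0.27 on arrays 3 and 4, the only ones with a value. At 30 min it read 0.11, 0.56, 0.76 and 0.69, a rise of 0.53 ± 0.12 or 1.44-fold (adjusted p = 0.00332), with array 1 the lowest. Fitted on that group alone it missed (adjusted p = 0.0914), as on the larger slide series (adjusted p = 0.065), and it held under 10 of 16 pairings.

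The difference in GCY1 between mutant and wild type at 30 min was -0.88 ± 0.17, a 1.84-fold smaller response in the mutant (adjusted p = 0.035). Every mutant array lay below every wild-type array. The estimate held its size, from -0.97 to -0.75 with each array left out in turn and from -1.06 to -0.84 under the 10 settings that changed the model, the scaling or the filter. The call was less stable. It was lost without wild-type array 1 (-0.88, adjusted p = 0.17) or array 2 (-0.89, adjusted p = 0.142), and without mutant array 1 (-0.75, adjusted p = 0.104) or array 2 (-0.87, adjusted p = 0.0699). It missed when only the strains at 30 min were fitted (adjusted p = 0.146) and on the larger slide series (adjusted p = 0.127). In each of these fits, and in each of those without an array just named, 0 features passed in the whole test. The loss was thus not particular to GCY1. The call held under 2 of 16 pairings, the only ones where any feature passed (52 and 67 of 4331). At 10 min the mutant had too few arrays for the test. With 2 arrays per group allowed, the difference was -1.38 ± 0.22, a 2.60-fold smaller response (adjusted p = 0.00494, 2 mutant and 3 wild-type arrays), again with no overlap. Under the same setting GCY1 in the mutant changed by 0.74 ± 0.21 from 10 to 30 min (adjusted p = 0.029). In wild type that change was 0.24 ± 0.18 (adjusted p = 0.367), and 0.64 under quantile normalization (adjusted p = 0.0284).

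DAK1, the kinase that returns dihydroxyacetone to glycolysis, rose modestly in 3 of the 4 groups. Wild type read 1.00, 0.35, 0.46 and 0.30 at 10 min, a rise of 0.53 ± 0.13 or 1.44-fold (adjusted p = 0.00312). The mutant at 10 min read -0.09, 0.19 and 0.11 on arrays 2, 3 and 4 (0.07 ± 0.15, adjusted p = 0.732, n = 3). Every mutant array thus lay below every wild-type array at 10 min, but the difference of -0.46 ± 0.20 did not pass (adjusted p = 0.415). At 30 min wild type read 0.25, 0.51, 0.64 and 0.66, a rise of 0.52 ± 0.13 or 1.43-fold (adjusted p = 0.00518). The mutant read 0.49, 0.62, 0.68 and 0.52, a rise of 0.58 ± 0.13 or 1.49-fold (adjusted p = 0.00257). The strains overlapped at 30 min, with a difference of 0.06 ± 0.18 (adjusted p = 0.897). In the mutant DAK1 changed by 0.50 ± 0.20 from 10 to 30 min, with groups apart, and did not pass (adjusted p = 0.0938). Of the 16 pairings, 12 kept the early wild-type rise, 10 the late one and 12 that of the mutant. On the larger slide series the late wild-type rise missed (adjusted p = 0.0541), as did that of the mutant when fitted on its group alone (adjusted p = 0.0535).

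Across the set, the mutant at 10 min had 3 of 6 tested genes past the threshold, all higher (GPD1, GPP2 and GUT2), beside 36.5% of 3042 features (18.6% higher). Wild type at 30 min had 5 of 8 past it, all higher (GPD2, GPP1, GPP2, GCY1 and DAK1), beside 38.0% of 4288 (19.2% higher). The mutant at 30 min had 6 of 9, all higher (GPD2, GPP1, GPP2, GCY1, DAK1 and GUT2), beside 41.1% of 4234 (22.0% higher). Medians over the genes tested were 0.45, 0.46 and 0.53, against 0.01, 0.02 and 0.02 over all features. With so few genes and so high a background, the values of each gene say more than these counts.

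The comparison of the strains asks which responses differ without Msn2 and Msn4. Of 6 genes tested at 10 min, 0 passed in limma, beside 0.974% of 2361 features. DAK1 was the 1 gene of the 6 with an unadjusted p below 0.05. Of 8 tested at 30 min, 1 passed, GCY1, which was lower, beside 1.01% of 3978 features (0.277% lower). GPD1, GPD2, GPP1, GPP2 and GUT2 were measured on all arrays and were not shown to differ at either time. Their differences ran from -0.32 to 0.50 with errors of 0.18 to 0.31, so differences of that size, and larger ones, are not excluded by these arrays.

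**Figure D3:**
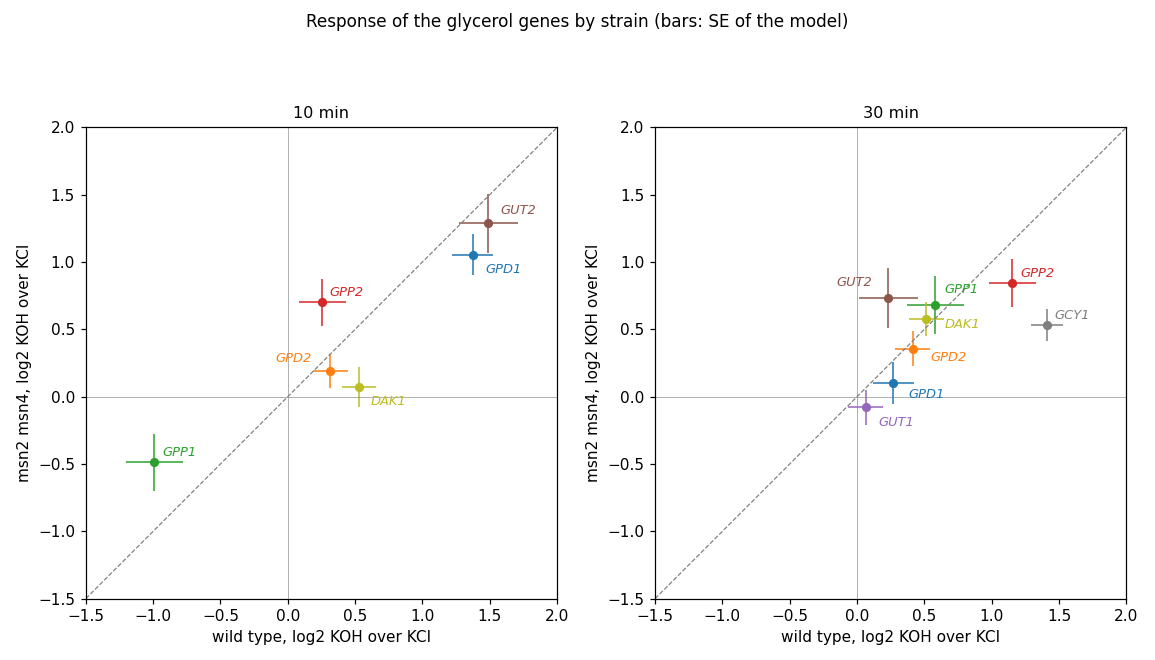
Each point is a gene tested in both strains, with the log2 ratio of KOH over KCl in wild type on the x axis and in the msn2 msn4 mutant on the y axis, at 10 min on the left and 30 min on the right. Bars are standard errors of the model and the dashed line marks equal responses. At 30 min GCY1 lies farthest below the line, at 1.41 in wild type and 0.53 in the mutant. GUT1, STL1 and GCY1 are missing at 10 min, and STL1 at 30 min, for want of values.

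The comparison of the times asks how the response changed between 10 and 30 min. In wild type 4 of 7 tested genes changed, beside 19.9% of 2607 features (6.83% higher and 13.1% lower): GPD1 and GUT2 went down, and GPP1 and GPP2 went up. In the mutant 2 of 6 changed, beside 16.1% of 2934 features (6.07% higher and 10.1% lower): GPD1 went down and GPP1 went up. GPD2 did not pass in either strain, at 0.09 ± 0.18 (adjusted p = 0.751) and 0.17 ± 0.18 (adjusted p = 0.628), nor did DAK1 in wild type (-0.01 ± 0.18, adjusted p = 0.975).

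**Figure D4:**
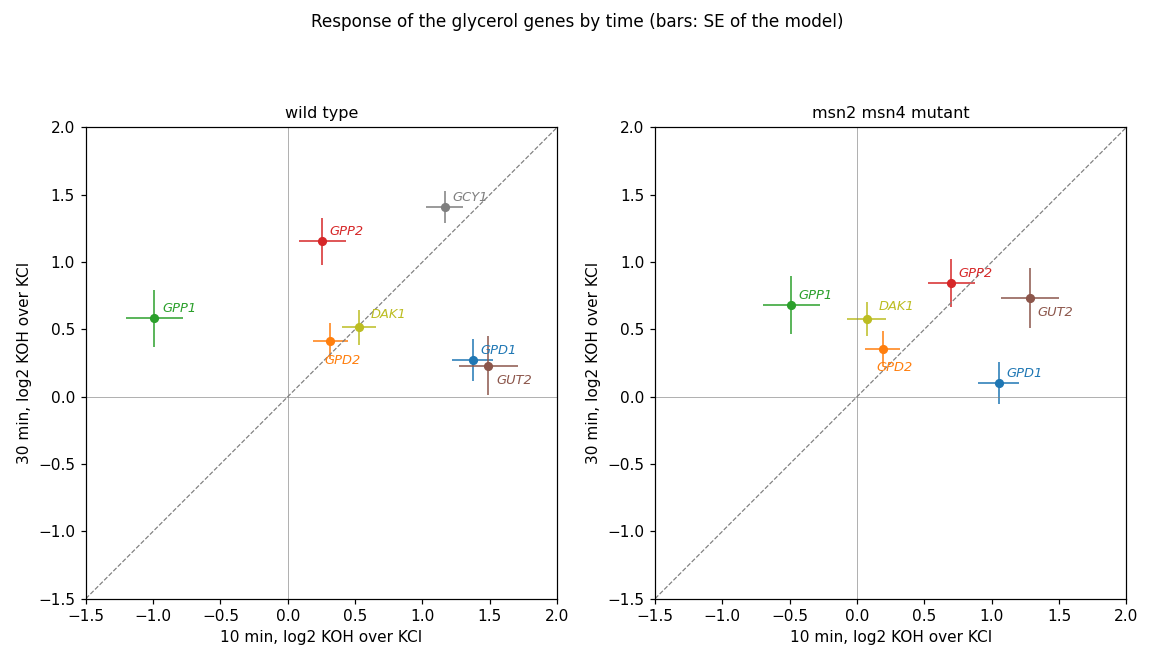
Each point is a gene tested at both times, with the log2 ratio of KOH over KCl at 10 min on the x axis and at 30 min on the y axis, in wild type on the left and the msn2 msn4 mutant on the right. Bars are standard errors of the model and the dashed line marks equal responses. GPD1 lies below the line and GPP1 above it in both strains, and GUT2 falls from 1.49 to 0.23 in wild type.

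Array by array, some genes ran together within synthesis or within use, and others across them. GPD1 correlated with GUT1 (r = 0.79, 12 arrays) and GUT2 (r = 0.71, 16 arrays). So did GUT1 with GUT2 (r = 0.73, 12 arrays) and GPP1 with GPP2 (r = 0.77, 16 arrays). GPP1 ran against GUT1 (r = -0.83, 12 arrays) and GPD1 (r = -0.63, 16 arrays). These correlations share arrays and groups, and are given as descriptions.

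Among all other features with at least 12 shared arrays, those most like GPD1 were SUR1 (r = 0.93), YLR374C (r = 0.93) and RPL3 (r = 0.92). GPP1 was most like the acid phosphatase genes PHO12 (r = 0.96) and PHO11 (r = 0.95), which are near-identical copies, and MVD1 (r = 0.95), of sterol synthesis. GPP2 was most like AUA1 (r = 0.92), DOT5 (r = 0.89) and ILV6 (r = 0.87). GUT1 was most like the kinase genes YAK1 (r = 0.94), RIM11 (r = 0.94) and TDA1 (r = 0.93), over 12 arrays each. GCY1 was most like APE1 (r = 0.87), PYK2 (r = 0.86) and YIM1 (r = 0.84). GUT2, DAK1 and GPD2 had weaker best matches, led by HST1 (r = 0.80), MNN1 (r = 0.86) and the feature YCLX06C (r = 0.78).

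The osmotic stress (HOG) pathway, whose kinase Hog1 drives GPD1 and GPP2 in salt or sorbitol, was read through 24 of its genes. In wild type at 10 min 4 of 11 tested rose and 2 fell, beside 21.8% and 20.9% of all features, with a median of 0.13 beside -0.04. RCK2, a kinase downstream of Hog1, rose by 1.23 ± 0.18 (adjusted p = 0.000106, n = 3), HOG1 itself by 0.57 ± 0.12 and its activating kinase gene PBS2 by 0.50 ± 0.12. MSB2, a membrane sensor, stood at -0.45 ± 0.15 (adjusted p = 0.0259). In the mutant at 10 min 5 of 14 rose, beside 18.6% of features, and 0 fell (median 0.11 beside 0.01), among them RCK2 (0.78 ± 0.18, n = 3), the repressor gene SKO1 (0.67 ± 0.16, n = 3), the adaptor gene STE50 (0.62 ± 0.21, n = 3) and HOG1 (0.54 ± 0.12).

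At 30 min 2 of 19 HOG genes rose and 4 fell in wild type, beside 19.2% and 18.8% (median -0.06 beside 0.02), led by the phosphatase gene PTP2 (1.17 ± 0.25, n = 3, from 0.40 to 2.04). STE50 stood at 0.71 ± 0.18, the phosphatase gene PTP3 at -0.60 ± 0.16 and the sensor gene SHO1 at -0.53 ± 0.14. In the mutant 2 of 16 rose and 2 fell, beside 22.0% and 19.1% (median 0.05 beside 0.02), namely RCK2 (0.76 ± 0.19, n = 3), HOT1 (-0.66 ± 0.13), MSB2 (0.56 ± 0.16) and SHO1 (-0.53 ± 0.16, n = 3). HOT1 encodes a factor that binds the STL1 and GPD1 promoters. In wild type it was lower too, at -0.44 ± 0.15 at 10 min (adjusted p = 0.0298, n = 3) and -0.51 ± 0.13 at 30 min (adjusted p = 0.00656). The strains were not shown to differ in HOT1 at 30 min (-0.15 ± 0.19, adjusted p = 0.707). MSB2 was the 1 HOG gene of 16 tested with a difference between strains at 30 min, 1.03 ± 0.22 (adjusted p = 0.0377), beside 0.729% of features higher. Like that of GCY1, the call was lost without array 1 or 2 of either strain, with only the groups compared and on the larger slide series, and also with centring on the features measured on all 16 arrays. In the fits shared with GCY1 0 features passed in the whole test, while 42 of 3978 passed with that centring. The MSB2 call held under 2 of 16 pairings, again the only ones where any feature passed. From 10 to 30 min 0 of 11 HOG genes rose and 3 fell in wild type, beside 6.83% and 13.1% of features, led by HOG1 (-0.77 ± 0.17, adjusted p = 0.00363) and SSK1, a response regulator gene (-0.63 ± 0.20, adjusted p = 0.0313). In the mutant 1 of 12 rose, MSB2 (0.96 ± 0.22, adjusted p = 0.00447), and 1 fell, HOG1 (-0.53 ± 0.17, adjusted p = 0.0399), beside 6.07% and 10.1%.

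The glycerol channel gene FPS1 was tested in 3 groups. It stood at 0.57 ± 0.16 in the mutant at 10 min (adjusted p = 0.0137, n = 3), -0.34 ± 0.14 in wild type at 30 min (adjusted p = 0.0722) and -0.47 ± 0.14 in the mutant at 30 min (adjusted p = 0.0179). Its change with time in the mutant was -1.04 ± 0.21 (adjusted p = 0.00354). ASK10, which encodes a positive regulator of the channel also called Rgc2, rose in wild type by 0.45 ± 0.12 at 10 min and 0.63 ± 0.12 at 30 min, and by 1.02 ± 0.12 in the mutant at 30 min. RGC1, its paralogue, rose in the mutant at 10 min (0.30 ± 0.11) and 30 min (0.67 ± 0.11). RGC1 was higher in the mutant than in wild type at 30 min, by 0.71 ± 0.16 (adjusted p = 0.0466). That call held under 5 of the 10 other settings, with 2 of the 8 arrays left out in turn and under 0 of 16 pairings. In some of the fits that lost it, and in most pairings, 0 features passed in the whole test.

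Among 15 neighbouring enzymes, 4 of 10 tested rose and 1 fell in wild type at 10 min, and 5 of 11 rose in the mutant, with medians of 0.28 and 0.17 beside -0.04 and 0.01 over all features. The shares over all features were 21.8% higher and 20.9% lower in wild type and 18.6% higher in the mutant. ARA1, an arabinose dehydrogenase of the same family as GCY1, stood at 1.30 ± 0.16 in wild type and 0.98 ± 0.16 in the mutant. GRE3, an aldose reductase, stood at 1.24 ± 0.14 and 0.64 ± 0.16 (n = 3), and GPT2, which acylates glycerol 3-phosphate, at 0.97 ± 0.14 and 0.61 ± 0.16 (n = 3). NDI1, the internal NADH dehydrogenase, stood at 1.18 ± 0.13 and 0.85 ± 0.16 (n = 3). At 30 min 8 of 14 rose and 2 fell in wild type, and 4 of 14 rose and 1 fell in the mutant, with medians of 0.50 and 0.13 beside 0.02 in both. The shares over all features were 19.2% higher and 18.8% lower in wild type and 22.0% and 19.1% in the mutant. NDE2, an external NADH dehydrogenase, rose by 2.16 ± 0.19 in wild type and 1.97 ± 0.19 in the mutant, and ARA1 by 1.57 ± 0.16 and 1.17 ± 0.16. GDE1, which releases glycerol 3-phosphate from glycerophosphocholine, rose by 0.85 ± 0.19 and 1.13 ± 0.19. SCT1, the other glycerol 3-phosphate acyltransferase, stood at -0.92 ± 0.23 (n = 3) and -0.79 ± 0.20. In limma 0 of 9 neighbouring enzymes passed the test of difference between strains at 10 min and 0 of 14 at 30 min. The shares over all features were 0.974% and 1.01%, so these counts say little about the enzymes. Of those tested, 1 and 3 had an unadjusted p below 0.05. From 10 to 30 min in wild type 1 of 10 rose and 4 fell, beside 6.83% and 13.1%, the largest changes being those of SCT1 (-1.23 ± 0.31, 3 arrays a group) and NDI1 (-1.19 ± 0.19). In the mutant 2 of 11 fell, beside 10.1%, again SCT1 (-1.33 ± 0.27) and NDI1 (-0.85 ± 0.21).

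Of 15 regulators of glycerol use, 6 were tested at 10 min in each strain, and 9 in wild type and 11 in the mutant at 30 min. ADR1, the activator of GUT1 and other glucose-repressed genes, rose at 30 min in wild type (0.81 ± 0.24, adjusted p = 0.0171) and in the mutant (1.23 ± 0.24, adjusted p = 0.00174). MIG1, the glucose repressor, rose in the mutant at 10 min (1.09 ± 0.23, n = 3), as did HAP2 (0.66 ± 0.20) and OPI1 (0.40 ± 0.12), and these were 3 of 6 tested, beside 18.6% of features higher. MIG1 was not tested in wild type at that time. There HAP2 (0.38 ± 0.20, adjusted p = 0.1355) and OPI1 (-0.18 ± 0.12, adjusted p = 0.23) did not pass. In wild type at 10 min 1 of 6 passed, beside 42.7% of features, RSF2, a regulator of growth on glycerol, at 0.58 ± 0.14. RSF2 fell at 30 min in wild type (-0.41 ± 0.15, adjusted p = 0.0395), where with ADR1 it made 2 of 9 that passed, beside 38.0% of features. In the mutant ADR1 was 1 of 11, beside 41.1%. These 3 shares of the list lay below those over all features. Medians of the list, over partly different genes, were 0.06 and 0.41 at 10 min and 0.14 and -0.23 at 30 min in wild type and mutant, beside -0.04, 0.01, 0.02 and 0.02 over all features. Between strains 0 of 5 regulators passed in limma at 10 min and 0 of 8 at 30 min, beside 0.974% and 1.01% of features. Of these, 1 and 3 had an unadjusted p below 0.05.

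Of 15 genes known to respond to Hog1 in osmotic stress, 5 of 8 tested rose in wild type at 10 min, beside 21.8% of features, led by the small heat shock gene HSP26 (3.37 ± 0.30, n = 3) and RTC3 (1.34 ± 0.27, n = 3). In the mutant at 10 min 1 of 4 tested rose, beside 18.6%, GLO1, the glyoxalase gene, at 0.33 ± 0.13. At 30 min 3 of 7 rose in wild type, beside 19.2%, with HSP26 at 0.94 ± 0.26, the peroxiredoxin gene AHP1 at 0.79 ± 0.18 and GLO1 at 0.58 ± 0.13. In the mutant at 30 min GLO1 rose (0.40 ± 0.13) and the catalase gene CTT1 fell (-0.53 ± 0.15), of 9 tested, beside 22.0% higher and 19.1% lower. Medians of this list were 0.51 and 0.18 at 10 min and 0.39 and -0.14 at 30 min in wild type and mutant, beside -0.04, 0.01, 0.02 and 0.02, but over different genes, since HSP26 and RTC3 were not tested in the mutant at 10 min. In limma 0 of 4 genes passed the test of difference between strains at 10 min and 0 of 7 at 30 min. The shares over all features were 0.974% and 1.01%, so these counts say little about the list. Of the genes tested, 1 and 2 had an unadjusted p below 0.05. These lists hold some targets of Msn2 and Msn4, and no member of any list is offered as evidence for the activity of a kinase or a factor.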

How the data were processed

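RNA was labelled by indirect incorporation with oligo(dT) priming, per the labels' protocols. The authors deposited 1 log ratio per feature and array, read here as log2, with base, direction, scanner, background correction and normalization not given in the sources used here. Each array was centred on its median (deposited medians ran from -0.285 to 0.2615). The values of array 2 of the mutant at 10 min carry more than 3 decimals in 43.3% of cases, unlike the others, and array 3 of wild type at 10 min carries 2 decimals. How these were made is not known. The model, in limma 3.58.1 under R 4.3.3, had 1 coefficient per group and a dye term per gene, moderation over the features tested, and was tested on simulated data. Differences were fitted as coefficients of the same model. No value column was left out. Members, lists and tests were chosen with earlier results of these data known. All 9 members are named, from each list the 4 largest changes that passed with 1 sign on every measured array (2 for differences), and the 3 features most like each member. Fewer or more are named in places. Alternatives are listed in the closing section.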

Additional observations from a re-analysis of the deposited data

Results flagged for a closer look

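Differences between groups that passed the test were -0.88 for GCY1 between mutant and wild type at 30 min, -1.10 for GPD1, 1.57 for GPP1, 0.90 for GPP2 and -1.26 for GUT2 between 30 and 10 min in wild type, and -0.95 for GPD1 and 1.17 for GPP1 between 30 and 10 min in the mutant. GCY1 stood above 0 on all 3 measured wild-type arrays at 10 min and below 0 on both measured mutant arrays, a difference of means of -1.36. In the mutant it stood below 0 at 10 min and above 0 on all 4 arrays at 30 min, a difference of means of 0.74. Neither was tested in the main model, for want of values. None of the 27 sets of 4 values of a gene in a group held an array past Dixon's limit.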

How the results depend on the processing

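The counts of glycerol genes past the threshold were 5, 3, 5 and 6 for wild type and mutant at 10 min and wild type and mutant at 30 min, 0 and 1 for the strains at 10 and 30 min, and 4 and 2 for the times in wild type and mutant. No member turned its direction in a called comparison under any setting run. With only the groups compared in the fit, the counts at 30 min were 3 in wild type and 2 in the mutant, with 0 for the strains. Over all features calls there went from 1630 to 1336, from 1742 to 810 and from 40 to 0. With the larger slide series only, the counts of glycerol genes were 2, 3 and 0, and 1 for the times in the mutant. Calls over all features were then 1173, 1125, 0 and 340. With at least 2 arrays per group the strains at 10 min gave 1 and the times in the mutant 4, beside 44 of 3458 and 520 of 4162 features. Over the 16 pairings of opposite dyes the mutant at 10 min gave up to 5, wild type at 30 min as few as 2, the mutant at 30 min as few as 1, the strains at 10 min up to 1, the strains at 30 min as few as 0, the times in wild type as few as 0 and the times in the mutant 0 to 4. Leaving out each array in turn gave 3 to 5 in wild type at 30 min, 3 to 7 in the mutant at 30 min, 0 to 1 for the strains at 10 min and at 30 min, and 2 to 4 for the times in the mutant. Calls over all features moved as well. Over the pairings the mutant at 10 min gave 636 of 3305 to 1579 of 4175. Wild type at 30 min gave 778 of 4550 to 1764 of 4604, with the mutant given above. The times gave 139 of 2979 to 882 of 3445 in wild type and 149 of 3164 to 716 of 3986 in the mutant. The strains gave 4 of 2609 to 84 of 3356 at 10 min and 0 to 67 at 30 min. With an array left out, wild type at 30 min gave 1265 to 1381 and the mutant 1362 to 1593. The strains then gave 10 to 40 at 10 min and 0 to 260 at 30 min, and the times in the mutant 326 to 435. Other settings (no dye term, slide series as a term, values as deposited, quantile normalization, all 4 arrays per group, robust moderation and, chosen after seeing the data, centring on features on all 16 arrays) stayed within 1.5 times. No paired analysis was possible because the labels give no replicate numbers. The number of arrays limits the precision.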
